A study of Rattus norvegicus with 12 samples.

Results

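The mitosis and spindle genes are 42 genes chosen by symbol for their roles in cell division, with earlier results of these data known. Of the 42 genes, 41 were matched to the deposited table of 28546 genes. The other, Ccnb2, a B-type cyclin, is not analysed here. All 41 passed the filter on low values (3 or more libraries at 1 FPKM or above), as did 11373 genes in all. FPKM counts the fragments of a gene scaled to its length and to the depth of the library. Scaling to length lets levels be set beside each other between genes. Comparison between libraries also depends on how depth was scaled, and that step is not given in the sources used here. Median-of-ratios factors, which level the typical gene between libraries, ran from 0.9996 to 1.0005, so the values were already on that scale.

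Cells enter mitosis when the kinase Cdk1 is switched on by its cyclins, and condensins and topoisomerase II then fold the chromosomes into compact rods. The kinetochores, which are built on the centromeres, attach the chromosomes to the spindle, and a checkpoint holds the anaphase-promoting complex (APC/C, a ubiquitin ligase) in check until all are attached. Cohesin is then cut, the spindle midzone forms and the cell is pinched apart. The genes for these proteins are mostly silent in resting cells, where the DREAM complex represses them. These genes are switched on together late in the cell cycle, largely through MuvB complexes with B-Myb and Foxm1. Chondrocytes of adult articular cartilage rarely divide, but they resume division when they are released from the matrix and grown in dishes.

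The libraries came from knee articular chondrocytes of male Sprague Dawley rats, in 4 groups of 3 libraries. In 3 of the groups the anterior cruciate ligament had been ruptured by a single compression of the tibia, which leads to post-traumatic osteoarthritis, and the knee was injected from 4 weeks later, every 10 days over 8 weeks. The injections held saline (Saline), empty liposomes (Liposome), or liposomes loaded with CGS21680, a selective agonist of the adenosine A2A receptor (Lipo-CGS). The fourth group, Uninvolved knee, came from knees labelled as uninvolved, which the study also calls normal or unaffected. Whether they were the opposite knees of injured rats is not given for these libraries in the sources used here. No age is given for the rats. Cartilage from 3 rats was pooled for each library, and the cells were freed with enzymes, cultured and trypsinized before RNA was taken, so the levels are those of cells in culture and not of cells in cartilage. The methods give 5–6 rats per group, fewer than 3 pools of separate rats need, and which libraries share rats is not given in the sources used here. A p-value therefore measures the spread between these libraries, which may be partly technical.

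Read depth is unknown, because the table holds FPKM only. Total FPKM per library ranged from 406630 to 544170, the genes at 1 FPKM or more from 10858 to 11109, and the relative depth estimated from 140 lowly expressed genes from 0.851 to 1.15. These 140 genes were kept only where their non-zero values lay close together, so the estimate could not show a large difference in depth. The cells matched their label, with Col2a1, the main collagen of cartilage, between 4132 and 13372 FPKM and Acan, the aggrecan core protein, between 681 and 1852 FPKM. Red cell and endothelial markers summed to at most 0.05 and 0.18 FPKM. Ptprc, the pan-leukocyte CD45, was at most 0.09 FPKM, although the summed leukocyte list lay at 44.5–69.8 FPKM in uninvolved knees, 44.4–49.3 in Saline, 22.6–25.9 in Liposome and 26.4–36.4 in Lipo-CGS, most of it from Cd14.

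The promoters of these genes often share short elements, and 6 of them are printed here because they span the differences between Lipo-CGS and uninvolved knees described later, from large ones (Cdk1, Pttg1) to small ones (Ect2, Anln). Cell cycle genes of late phases are bound at a short element named CHR (cell cycle genes homology region, TTTGAA) by the MuvB complexes, often with CCAAT boxes bound by NF-Y nearby. Each line gives 250 bases before and 50 bases after the start of transcription, 5′ to 3′ on the strand of the gene, from RefSeq on GRCr8. Capitals mark TTTGAA and CCAAT on either strand, so that TTCAAA and ATTGG are the same elements read backwards.
Cdk1 (chr20:19265043-19265342, plus strand): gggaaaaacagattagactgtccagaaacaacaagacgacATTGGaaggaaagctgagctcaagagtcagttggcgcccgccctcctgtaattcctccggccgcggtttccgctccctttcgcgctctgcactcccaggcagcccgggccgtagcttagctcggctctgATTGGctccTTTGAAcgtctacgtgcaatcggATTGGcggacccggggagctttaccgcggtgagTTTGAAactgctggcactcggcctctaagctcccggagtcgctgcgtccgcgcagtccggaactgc
Pttg1 (chr10:28406277-28406576, minus strand): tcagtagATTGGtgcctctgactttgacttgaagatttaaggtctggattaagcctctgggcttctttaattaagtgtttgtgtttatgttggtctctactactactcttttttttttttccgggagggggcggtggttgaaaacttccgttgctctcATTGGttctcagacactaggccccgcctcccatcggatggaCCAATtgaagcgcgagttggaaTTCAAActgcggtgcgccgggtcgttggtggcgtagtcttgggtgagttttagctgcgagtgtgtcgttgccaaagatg
Prc1 (chr1:143659231-143659530, plus strand): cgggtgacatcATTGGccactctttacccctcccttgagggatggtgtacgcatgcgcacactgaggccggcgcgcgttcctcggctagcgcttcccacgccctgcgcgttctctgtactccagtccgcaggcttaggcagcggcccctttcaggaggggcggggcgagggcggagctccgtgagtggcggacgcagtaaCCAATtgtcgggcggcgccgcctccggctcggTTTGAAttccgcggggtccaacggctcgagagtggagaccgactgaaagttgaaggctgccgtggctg
Kif11 (chr1:244536617-244536916, plus strand): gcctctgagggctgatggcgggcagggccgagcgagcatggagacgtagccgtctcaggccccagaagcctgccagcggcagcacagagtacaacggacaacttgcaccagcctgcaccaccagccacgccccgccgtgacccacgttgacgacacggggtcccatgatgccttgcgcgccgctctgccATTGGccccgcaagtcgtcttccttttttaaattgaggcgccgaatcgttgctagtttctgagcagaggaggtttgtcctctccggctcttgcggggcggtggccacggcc
Ect2 (chr2:111966577-111966876, minus strand): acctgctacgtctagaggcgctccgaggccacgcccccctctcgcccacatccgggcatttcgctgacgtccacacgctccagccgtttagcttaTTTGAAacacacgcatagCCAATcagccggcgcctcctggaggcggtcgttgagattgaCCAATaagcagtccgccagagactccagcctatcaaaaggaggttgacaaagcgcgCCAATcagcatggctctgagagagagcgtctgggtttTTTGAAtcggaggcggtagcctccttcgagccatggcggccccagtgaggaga
Anln (chr8:29197464-29197763, minus strand): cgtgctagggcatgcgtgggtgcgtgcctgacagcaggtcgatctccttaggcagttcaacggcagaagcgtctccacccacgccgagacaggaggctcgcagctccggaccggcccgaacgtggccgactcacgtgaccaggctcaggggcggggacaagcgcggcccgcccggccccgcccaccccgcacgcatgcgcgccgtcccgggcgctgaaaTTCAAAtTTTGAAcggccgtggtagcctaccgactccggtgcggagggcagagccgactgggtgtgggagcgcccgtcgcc

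Of the 42 genes 35 had a promoter in the RefSeq table, and Aurkb, Ccna2, Foxm1, Incenp, Racgap1, Tpx2 and Ube2c were not matched. TTTGAA was found on either strand in 27 of the 35 (77.1%), against 11.4% of 8338 promoters of tested genes and 18.1% of all 27457 promoters of the same length. Within 60 bases before to 50 bases after the start it was found in 21 of 35 (60%), against 3.31% of the promoters of tested genes. CCAAT was found in 26 of 35 (74.3%), against 38.5% of the promoters of tested genes, and 2 or more CCAAT boxes in 18 of 35 (51.4%), against 14.2%. Both elements stood together in 22 of 35 promoters (62.9%), against 4.73%. An E2F element (TTTCGCGC or TTTGGCGC, either strand) was found in 1 of 35 (2.86%), that of Cdk1, against 1.61% of the promoters of tested genes. A separate list of DNA replication genes, which act earlier in the cycle, had a different make-up, with TTTGAA in 3 of 32 promoters (9.38%), E2F elements in 12 of 32 (37.5%) and CCAAT in 19 of 32 (59.4%). Each motif was counted separately, also where matches overlapped. A match is a string of letters and was not tested as a binding site.

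**Figure D1:**
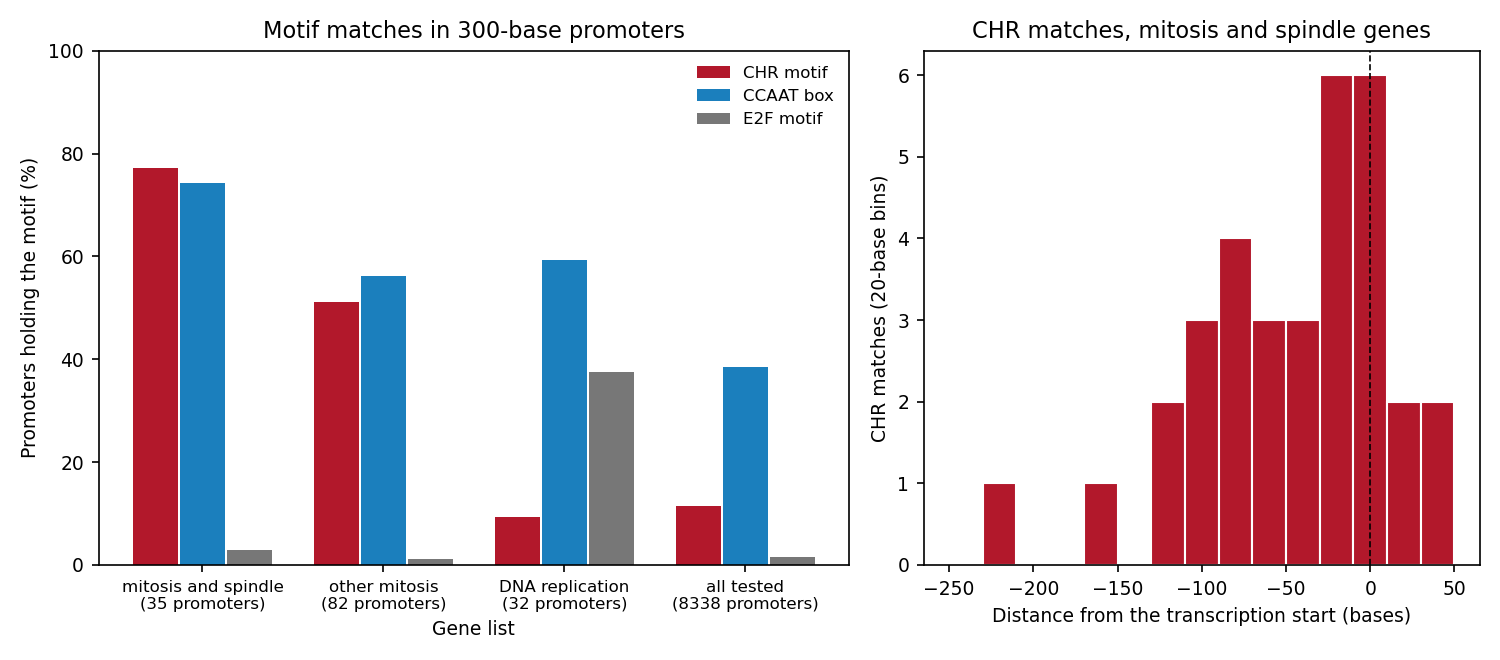
Left, percentage of 300-base RefSeq promoters (vertical axis) that hold the CHR element, the CCAAT box or an E2F element on either strand, for 35 mitosis and spindle genes, 82 other mitosis genes, 32 DNA replication genes and 8338 tested genes. Right, number of CHR matches in the mitosis and spindle genes by distance of their first base from the start of transcription, in 20-base bins. CHR stands in 77.1% of the first list and 11.4% of tested genes, and most matches lie close to the start.

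Transcripts of these genes were highest in uninvolved and Saline knees, lower and very unequal in the 3 Liposome libraries, and lowest in Lipo-CGS. Summed over the 41 genes, the uninvolved libraries held 1593, 1455 and 1380.3 FPKM (mean 1476 ± 108, SD, n = 3) and the Saline libraries 1205, 1302 and 1528 FPKM (1345 ± 166). The Liposome libraries held 1294, 851 and 660.5 FPKM (935 ± 325) and the Lipo-CGS libraries 510.4, 658 and 513 FPKM (560.2 ± 84.4). As a share of all FPKM in a library, the genes took 0.293–0.312% in uninvolved knees, 0.259–0.338% in Saline, 0.161–0.318% in Liposome and 0.116–0.156% in Lipo-CGS. Liposome 1 thus lay within the span of Saline, Liposome 3 lay next to Lipo-CGS 2, and Liposome 2 stood between the groups. In bulk RNA, a smaller number of dividing cells and less of these transcripts per cell cannot be told apart.

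Because the sum is led by a few abundant genes, each gene was also centred on its own mean of log2(FPKM + 0.5) over the 12 libraries, and the 41 centred values were averaged in each library. The averages were 0.53, 0.43 and 0.45 in uninvolved knees, 0.24, 0.34 and 0.58 in Saline, 0.43, -0.17 and -0.50 in Liposome, and -0.90, -0.53 and -0.89 in Lipo-CGS. The range within a group was 0.10 in uninvolved knees, 0.34 in Saline, 0.92 in Liposome and 0.36 in Lipo-CGS. Liposome 1 was the highest library of its group for 41 of 41 genes, where it was highest for 28.5% of all tested genes, and Liposome 3 was the lowest for 39 (38.0% of tested genes). The Liposome libraries spread more widely than those of any other group for 40 of 41 genes, against 31.0% of tested genes. Lipo-CGS 2 was the highest of its group for 40 genes (36.6% of tested genes) and Saline 3 for 38 (35.9%).

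**Figure D2:**
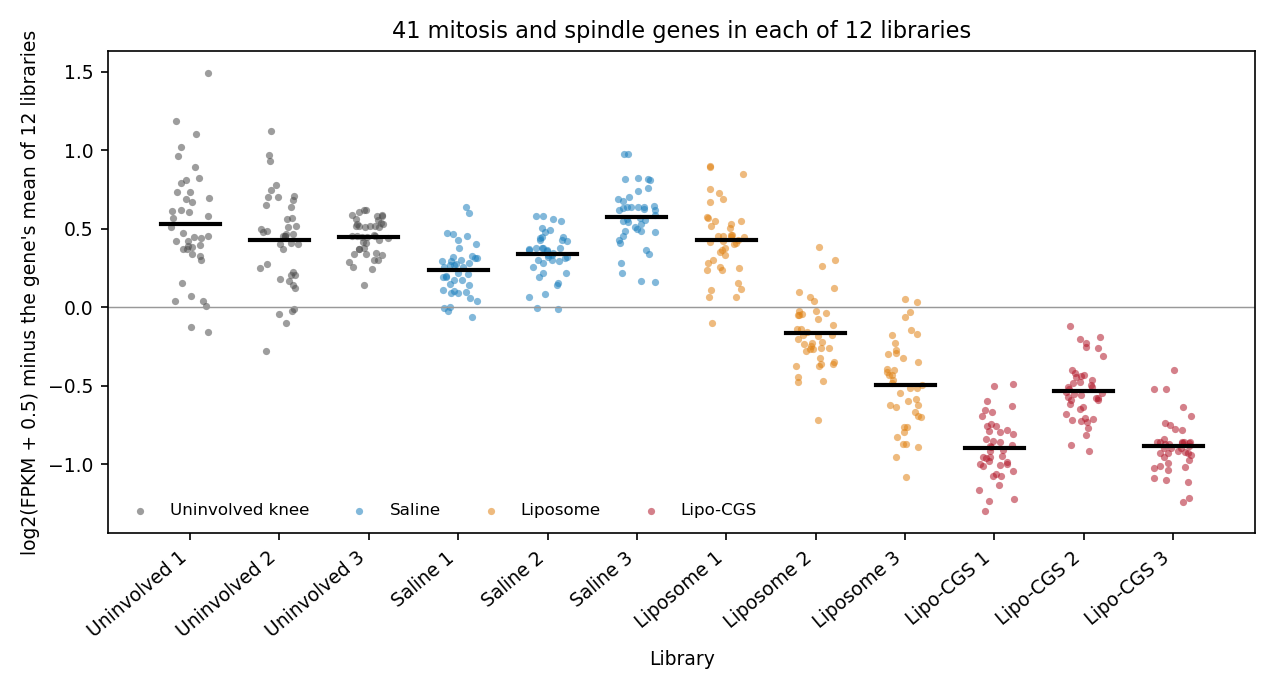
Each point is 1 of the 41 genes in 1 of the 12 libraries (horizontal axis), as log2(FPKM + 0.5) minus the mean of that gene over the 12 libraries (vertical axis), and each black bar is the mean of the 41 genes. The bars run from 0.58 in Saline 3 to -0.90 in Lipo-CGS 1, and those of the 3 Liposome libraries are 0.43, -0.17 and -0.50.

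The lowest of the 12 libraries was a Lipo-CGS library for all 41 genes, Lipo-CGS 1 for 21 and Lipo-CGS 3 for 20. For 21 genes all 3 Lipo-CGS libraries lay below the other 9 libraries. Liposome 3 lay below Lipo-CGS 2 for 18 genes. Liposome 1 lay above all 3 uninvolved libraries for 14 genes, within their range for 9 and below them for 18, while Liposome 2 and Liposome 3 were both below all uninvolved libraries for 34 genes. The highest value of the 12 fell in Uninvolved knee 1 for 16 genes, in Saline 3 for 13 and in Liposome 1 for 12. Shares over all tested genes were not computed for the counts in this paragraph. They describe the 41 genes, and nothing particular to these genes is read from them.

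Comparing injured, liposome-treated knees with uninvolved knees asks what the injury and the vehicle did together. In Liposome 18 of the 41 genes were called lower and 0 higher, by limma across all genes (fold change over 1.5 and Benjamini-Hochberg adjusted p below 0.05), where 16.3% of all tested genes were called lower and 14.1% higher. The median log2 fold change of the 41 was -0.56, beside -0.01 over all tested genes. Ube2c, Cdk1, Pttg1, Cdca8 and Spc25 had the largest differences. Anln, Ncapg and Ect2 had positive ones of 0.37, 0.33 and 0.32, with no call. The same 18 genes had Liposome libraries all below the uninvolved libraries, which held for 30.6% of tested genes. A single library set much of this count, which was 28 without Liposome 1 and 9 without Liposome 3.

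Lipo-CGS against uninvolved knees gave the widest differences. Here 40 of 41 genes were called lower and 0 higher, against 14.0% of tested genes called lower and 11.7% higher, with a median log2 fold change of -1.28 beside 0.01 over all tested genes. The differences ran from -2.16 for Ube2c to -0.58 for Anln, the only gene without a call (limma adjusted p = 0.095). The Lipo-CGS libraries were all below the uninvolved libraries for 39 genes (30.8% of tested genes), and the overlapping ones were Ect2 and Anln. Leaving out any single library kept the count between 36 and 40.

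Saline knees, which were injured but had no liposomes, showed no called difference from uninvolved knees. The count of called genes was 0 of 41 in either direction, as it was for all tested genes (0% called), and 0 of 41 reached even an unadjusted limma p under 0.05, against 2.67% of tested genes lower and 2.30% higher. The 41 differences ran from -0.34 to 0.19 on the log2 scale with a median of -0.08. Nuf2 and Nusap1 were the genes whose Saline libraries all lay below the uninvolved libraries (4.25% of tested genes).

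Against Saline, which shares the injury and the injections, Liposome had 16 of 41 genes called lower and 0 higher (12.3% of tested genes were called lower and 10.6% higher), with a median log2 fold change of -0.48 beside -0.01. The libraries did not overlap for 11 of the 41 (28.3% of tested genes). The count of called genes was 27 without Liposome 1, 9 without Liposome 2, 5 without Liposome 3, 9 without Saline 3 and 9 in a fit to these 6 libraries alone. Lipo-CGS had all 41 genes called lower than Saline (10.3% of tested genes, with 8.23% higher), with a median of -1.17 beside 0.01, a range from -1.83 to -0.62, and no overlap between the libraries for any of the 41 (30.1% of tested genes). The comparisons with Saline and with uninvolved knees use the same treated libraries and are not independent.

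The comparison of Lipo-CGS with Liposome addresses the agonist, since both hold the vehicle. All 41 genes had a lower mean log2 value in Lipo-CGS (49.2% of tested genes), from -0.96 for Ncapg to -0.48 for Cenpa, with a median of -0.68 beside 0.00 over all tested genes. None was called, since the adjusted p-values of limma ran from 0.0704 to 0.352, in a comparison where 0.0879% of tested genes were called lower and 0.0791% higher. At an unadjusted limma p under 0.05, 40 of 41 were lower and 0 higher, against 8.81% and 9.54% of tested genes. The Lipo-CGS libraries were all below the Liposome libraries for 23 of 41 (13.1% of tested genes). The median difference was -0.42 without Liposome 1 and -0.88 without Liposome 3, and 1 gene was called without Liposome 3 (Nusap1) or without Uninvolved knee 3 (Kif11).

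**Figure D3:**
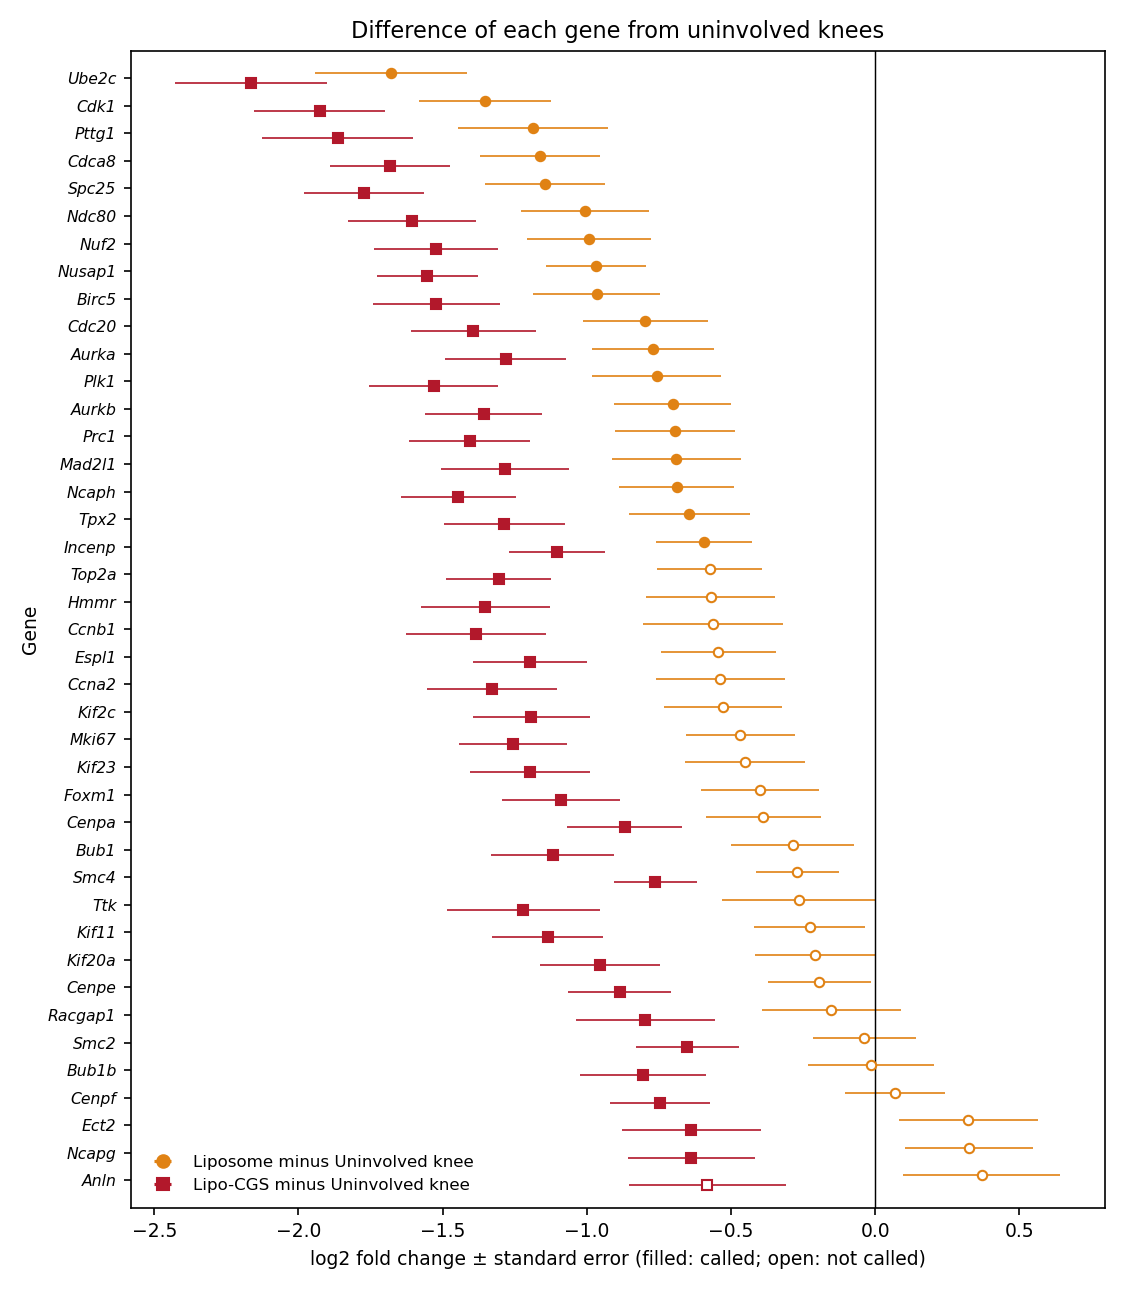
Log2 fold change with its standard error (horizontal axis) of each of the 41 genes (vertical axis), for Liposome minus Uninvolved knee (circles) and Lipo-CGS minus Uninvolved knee (squares), both set against the same 3 uninvolved libraries. Filled symbols mark called genes, 18 for Liposome and 40 for Lipo-CGS.

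Among the kinases and cyclins that start and steer mitosis, 4 of 9 were called lower in Liposome than in uninvolved knees (Cdk1, Aurka, Plk1, Aurkb) and 9 of 9 in Lipo-CGS. Over all tested genes 16.3% were called lower in Liposome and 14.0% in Lipo-CGS. These shares also stand beside the counts of the roles below, which are too small to rank the roles. Cdk1, the kinase that drives entry into mitosis and the most abundant of the 41 genes, had 232, 195 and 152 FPKM in uninvolved knees, 141, 153 and 166 in Saline, 106, 73.3 and 52.3 in Liposome and 47.95, 59.5 and 42.9 in Lipo-CGS. Every Liposome and Lipo-CGS library lay below every uninvolved and Saline library. The log2 fold change of Cdk1 was -1.35 ± 0.23 (standard error) in Liposome and -1.93 ± 0.23 in Lipo-CGS against uninvolved knees (limma adjusted p = 0.000603 and 0.000173), and -0.57 ± 0.23 between Lipo-CGS and Liposome (adjusted p = 0.215).

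Ccnb1, which encodes cyclin B1, the partner of Cdk1, was called lower in Lipo-CGS and not in Liposome. It had 50.1, 50.5 and 54.95 FPKM in uninvolved knees, 41.8, 45.4 and 64.4 in Saline, 50.3, 35.4 and 23.9 in Liposome and 17.9, 24.9 and 16.8 in Lipo-CGS. Liposome 1 overlapped the uninvolved libraries and Liposome 2 and 3 did not. Its log2 fold change against uninvolved knees was -0.56 ± 0.24 in Liposome, with no call (limma adjusted p = 0.0681), and -1.38 ± 0.24 in Lipo-CGS (adjusted p = 0.00108).

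Plk1, a kinase of spindle assembly and mitotic entry, had 48.6, 47.4 and 41 FPKM in uninvolved knees, 36.8, 39.00 and 53.2 in Saline, 39.7, 24.9 and 19.3 in Liposome and 14.7, 18.1 and 13.8 in Lipo-CGS. Aurkb, the kinase of the chromosomal passenger complex, had 16.01, 16.6 and 16.1 FPKM in uninvolved knees, 13.9, 14.6 and 18.9 in Saline, 14.5, 9.14 and 7.05 in Liposome and 5.51, 6.75 and 5.89 in Lipo-CGS. Both genes spread widely over the Liposome libraries, and the Lipo-CGS libraries lay below all of these. The log2 fold changes against uninvolved knees were -0.76 ± 0.22 and -1.53 ± 0.22 for Plk1 in Liposome and Lipo-CGS (limma adjusted p = 0.0135 and 0.000468). For Aurkb they were -0.70 ± 0.20 and -1.36 ± 0.20 (adjusted p = 0.012 and 0.000512).

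Ttk, the Mps1 kinase of the spindle checkpoint, was one of the genes that differed most between the 2 liposome groups. Its levels were 11.8, 10.6 and 12.97 FPKM in uninvolved knees, 8.76, 11.5 and 13.2 in Saline, 15.2, 9.05 and 6.56 in Liposome and 3.66, 6.46 and 4.5 in Lipo-CGS. Liposome 1 was the highest of the 12 libraries and Liposome 3 stood close to Lipo-CGS 2. The log2 difference between Lipo-CGS and Liposome was -0.96 ± 0.27 (limma adjusted p = 0.106, not called), against -0.26 ± 0.27 between Liposome and uninvolved knees (adjusted p = 0.421). The remaining genes of this group were Ccna2 (cyclin A2), Aurka (the spindle pole kinase) and the checkpoint kinases Bub1 and Bub1b, with log2 fold changes in Liposome against uninvolved knees of -0.54 ± 0.22, -0.77 ± 0.21, -0.29 ± 0.21 and -0.01 ± 0.22.

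In the kinetochore and checkpoint group 4 of 7 genes were called lower in Liposome than in uninvolved knees (Spc25, Ndc80, Nuf2, Mad2l1) and 7 of 7 in Lipo-CGS. Spc25, Ndc80 and Nuf2 encode 3 of the 4 subunits of the Ndc80 complex, which binds the microtubule end. Nuf2 had 48.04, 44.8 and 40.1 FPKM in uninvolved knees, 33.5, 38.1 and 39.9 in Saline, 32.2, 22.5 and 14.6 in Liposome and 13.8, 17.2 and 14.4 in Lipo-CGS. Spc25 had 37.01, 30.5 and 27.95 FPKM in uninvolved knees, 25.2, 24.7 and 29.1 in Saline, 18.8, 14.1 and 10.4 in Liposome and 7.01, 11.5 and 8.65 in Lipo-CGS. The Liposome libraries of both genes lay below all uninvolved and Saline libraries. For Nuf2 the log2 fold change against uninvolved knees was -0.99 ± 0.21 in Liposome (limma adjusted p = 0.00252) and -1.52 ± 0.21 in Lipo-CGS (adjusted p = 0.000386). For Spc25 it was -1.15 ± 0.21 (adjusted p = 0.000914) and -1.77 ± 0.21 (adjusted p = 0.000165). The other members of the group behaved unequally in Liposome, with -0.69 ± 0.22 for Mad2l1, the checkpoint protein Mad2, -0.39 ± 0.20 for Cenpa, the centromeric histone, -0.19 ± 0.18 for the kinesin Cenpe and 0.07 ± 0.17 for Cenpf, a large kinetochore protein.

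Of the spindle motors and microtubule proteins 3 of 8 were called lower in Liposome than in uninvolved knees (Nusap1, Prc1, Tpx2) and 8 of 8 in Lipo-CGS. Prc1, which bundles microtubules in the spindle midzone, followed the average of the other 40 genes most closely of all. It had 109.9, 103 and 105 FPKM in uninvolved knees, 87.3, 96.6 and 112 in Saline, 95.7, 62.4 and 46.2 in Liposome and 35.6, 46.2 and 37.7 in Lipo-CGS. Liposome 1 was under the uninvolved libraries but inside the Saline ones, and Liposome 3 was level with Lipo-CGS 2. Its log2 fold change against uninvolved knees was -0.69 ± 0.21 in Liposome (limma adjusted p = 0.0148) and -1.41 ± 0.21 in Lipo-CGS (adjusted p = 0.000502), and the difference between Lipo-CGS and Liposome was -0.71 ± 0.21 (adjusted p = 0.121).

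Kif11, the kinesin that pushes the spindle poles apart, was called lower than in uninvolved knees in Lipo-CGS and not in Liposome. Its levels were 17.2, 15.8 and 19.6 FPKM in uninvolved knees, 15.1, 16.7 and 19.8 in Saline, 20.5, 13.3 and 12.02 in Liposome and 6.57, 9.52 and 7.22 in Lipo-CGS. All 3 Lipo-CGS libraries were below all 9 others. The log2 difference of Lipo-CGS was -0.91 ± 0.19 against Liposome, with an adjusted p of 0.0704 by limma that shares the smallest value among the 41 genes, and -1.14 ± 0.19 against uninvolved knees (adjusted p = 0.000923). Liposome differed from uninvolved knees by -0.23 ± 0.19 (adjusted p = 0.337, not called).

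The 3 structural subunits of the chromosomal passenger complex, which corrects faulty attachments and then moves to the midzone, were called lower in both liposome groups than in uninvolved knees (3 of 3 each). Cdca8 (borealin) was the most abundant, with 82.6, 76.3 and 66.3 FPKM in uninvolved knees, 60.7, 62.9 and 77.96 in Saline, 47.6, 32.3 and 23.6 in Liposome and 21.2, 26.5 and 21.5 in Lipo-CGS. The 6 libraries of the liposome groups did not overlap the other 6. The log2 fold change of Cdca8 against uninvolved knees was -1.16 ± 0.21 in Liposome (limma adjusted p = 0.000817) and -1.68 ± 0.21 in Lipo-CGS (adjusted p = 0.000206). Birc5 (survivin) and Incenp had -0.97 ± 0.22 and -0.59 ± 0.17 in Liposome, and -1.52 ± 0.22 and -1.10 ± 0.17 in Lipo-CGS.

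Ube2c, an anaphase gene, had the largest difference of the 41 from uninvolved knees in both liposome groups. Of the anaphase and APC/C genes, called lower in Liposome than in uninvolved knees were 3 of 4 (Ube2c, Pttg1, Cdc20), and 4 of 4 in Lipo-CGS, where the other is Espl1, the separase that cuts cohesin. Ube2c, the enzyme that charges the APC/C with ubiquitin, had 41.99, 32.4 and 21.1 FPKM in uninvolved knees, 22.3, 21.6 and 29.2 in Saline, 13.6, 8.66 and 6.64 in Liposome and 5.97, 7.49 and 6 in Lipo-CGS. Liposome 3 was inside the span of Lipo-CGS, and all 6 were below the other 6 libraries. The log2 fold change of Ube2c against uninvolved knees was -1.68 ± 0.26 in Liposome, 3.20-fold lower (limma adjusted p = 0.000434), and -2.16 ± 0.26 in Lipo-CGS, 4.48-fold lower (adjusted p = 0.000198). Lipo-CGS differed from Liposome by -0.49 ± 0.26 (adjusted p = 0.352), among the smallest of the 41 differences in that comparison.

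Pttg1, the securin that holds separase inactive, had 53.4, 48.6 and 30.3 FPKM in uninvolved knees, 38.6, 33.3 and 48.9 in Saline, 27.4, 17.6 and 13.2 in Liposome and 10.2, 13.2 and 11.1 in Lipo-CGS. Cdc20, the activator of the APC/C that the checkpoint restrains, had 113, 112 and 93.2 FPKM in uninvolved knees, 84.2, 85.8 and 107 in Saline, 88.95, 58.7 and 42.7 in Liposome and 37.6, 46.5 and 36.4 in Lipo-CGS. The uninvolved libraries of Pttg1 were themselves unequal, and Liposome 1 lay just below the lowest of them. For Pttg1 the log2 fold changes against uninvolved knees were -1.19 ± 0.26 in Liposome (limma adjusted p = 0.00277) and -1.86 ± 0.26 in Lipo-CGS (adjusted p = 0.000378). For Cdc20 they were -0.80 ± 0.22 (adjusted p = 0.00883) and -1.39 ± 0.22 (adjusted p = 0.000616).

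Of the cytokinesis genes 0 of 3 were called in Liposome and 2 of 3 were called lower in Lipo-CGS than in uninvolved knees. With 16.3% of all tested genes called lower in Liposome, 0 of 3 does not set these genes apart. Ect2, the exchange factor that activates RhoA at the cleavage furrow, had 9.77, 10.4 and 13.98 FPKM in uninvolved knees, 10.3, 11.2 and 13.7 in Saline, 19.7, 14.1 and 10.3 in Liposome and 5.77, 9.80 and 6.17 in Lipo-CGS. Anln, the scaffold protein anillin of the contractile ring, had 7.44, 6.79 and 11.6 FPKM in uninvolved knees, 8.36, 8.28 and 12.8 in Saline, 15.98, 10.1 and 8.16 in Liposome and 5.12, 7.17 and 4.35 in Lipo-CGS. In both genes Liposome 1 was the highest of the 12 libraries, and Liposome 3 was inside the span of uninvolved knees. The log2 difference of Liposome from uninvolved knees was 0.32 ± 0.24 for Ect2 (limma adjusted p = 0.274) and 0.37 ± 0.27 for Anln (adjusted p = 0.267), both not called. The difference of Lipo-CGS from Liposome was -0.96 ± 0.24 for Ect2 (adjusted p = 0.0913) and -0.95 ± 0.27 for Anln (adjusted p = 0.114), also not called. Against uninvolved knees Lipo-CGS differed by -0.64 ± 0.24 for Ect2 (adjusted p = 0.045) and -0.58 ± 0.27 for Anln (adjusted p = 0.095), of which the first was called.

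Racgap1, the centralspindlin subunit that recruits Ect2, had 11.6, 12.3 and 16.3 FPKM in uninvolved knees, 12.3, 11.98 and 17.9 in Saline, 16.6, 12.1 and 8.36 in Liposome and 7.14, 9.39 and 6.10 in Lipo-CGS. Its Liposome libraries spanned those of uninvolved knees on both sides. The log2 fold change of Racgap1 was -0.15 ± 0.24 in Liposome (limma adjusted p = 0.615) and -0.80 ± 0.24 in Lipo-CGS (adjusted p = 0.0176) against uninvolved knees.

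Among condensin and chromosome structure genes 1 of 6 was called lower in Liposome than in uninvolved knees (Ncaph, a condensin I subunit) and 6 of 6 in Lipo-CGS. The count in Liposome is near the 16.3% of all tested genes. Top2a, the topoisomerase that untangles sister chromatids, had 57.5, 49.5 and 55.4 FPKM in uninvolved knees, 46.3, 51.6 and 53.7 in Saline, 51.2, 32.7 and 28.2 in Liposome and 20, 25.2 and 19.8 in Lipo-CGS. Mki67, which encodes the proliferation antigen Ki-67 that coats mitotic chromosomes, had 30.1, 20.99 and 24.3 FPKM in uninvolved knees, 22.4, 22.7 and 23.2 in Saline, 24.7, 15.8 and 14.5 in Liposome and 9.63, 12.1 and 8.86 in Lipo-CGS. Liposome 1 reached the uninvolved range in both genes and the Lipo-CGS libraries did not. The log2 fold change of Top2a was -0.57 ± 0.18 in Liposome, with an adjusted p of 0.0191 by limma but a fold change under 1.5, and -1.31 ± 0.18 in Lipo-CGS (adjusted p = 0.000367). For Mki67 it was -0.47 ± 0.19 (adjusted p = 0.0526, not called) and -1.26 ± 0.19 (adjusted p = 0.000527).

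Ncapg, another subunit of condensin I, had a difference of the opposite sign to Ncaph in Liposome, without a call. Its levels were 6.23, 5.75 and 7.98 FPKM in uninvolved knees, 6.09, 6.16 and 7.30 in Saline, 11.9, 7.76 and 6.34 in Liposome and 3.06, 5.21 and 4.16 in Lipo-CGS. Liposome 1 was the highest of the 12 libraries and Liposome 2 and 3 lay within the uninvolved range. Its log2 difference was 0.33 ± 0.22 between Liposome and uninvolved knees (limma adjusted p = 0.229, not called), -0.64 ± 0.22 between Lipo-CGS and uninvolved knees (adjusted p = 0.0314) and -0.96 ± 0.22 between Lipo-CGS and Liposome (adjusted p = 0.0765). Ncaph, Smc2 and Smc4, the last 2 being the condensin ATPases, had -0.69 ± 0.20, -0.04 ± 0.18 and -0.27 ± 0.14 in Liposome against uninvolved knees.

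Foxm1, a transcription factor that raises the expression of many late cell cycle genes, had 21.6, 24.02 and 22.2 FPKM in uninvolved knees, 20.02, 22.6 and 27.6 in Saline, 25.2, 14.8 and 13.2 in Liposome and 9.86, 12.03 and 9.32 in Lipo-CGS. Liposome 1 was above all uninvolved libraries, and Liposome 2 and 3 were below them. Its log2 fold change against uninvolved knees was -0.40 ± 0.20 in Liposome (limma adjusted p = 0.116, not called) and -1.09 ± 0.20 in Lipo-CGS (adjusted p = 0.00151).

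**Figure D4:**
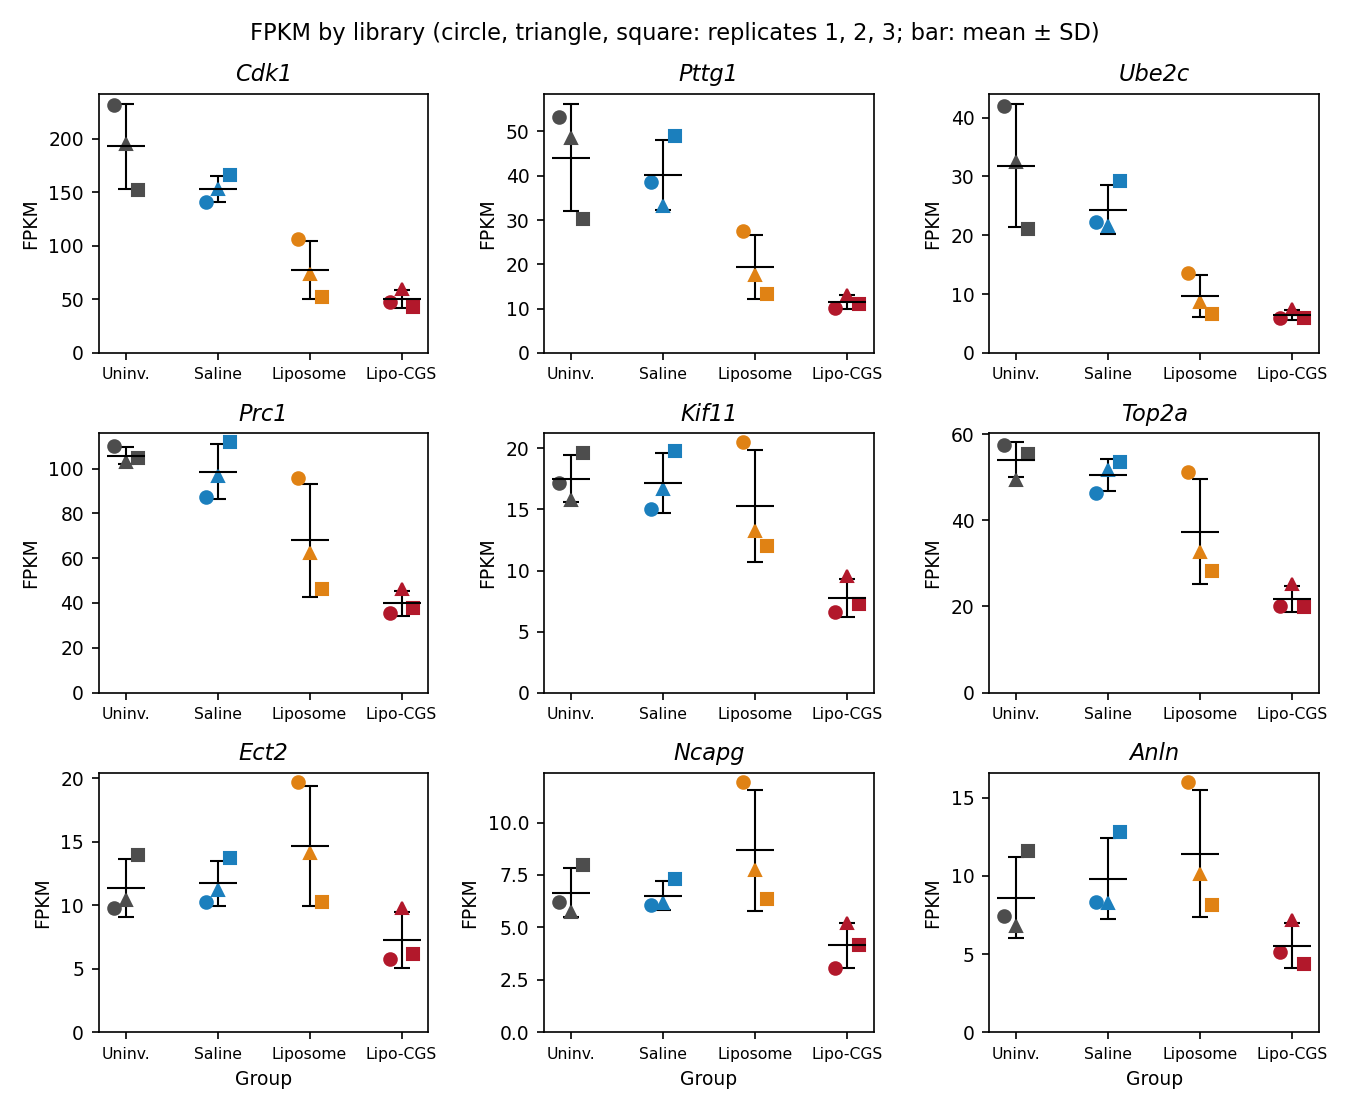
FPKM (vertical axis) of 9 genes in each library by group (horizontal axis), with circles, triangles and squares for replicates 1, 2 and 3 and bars for the mean ± SD of 3 libraries. Cdk1, Pttg1 and Ube2c separate both liposome groups from the other 6 libraries, while Ect2, Ncapg and Anln are highest in Liposome 1, at 19.7, 11.9 and 15.98 FPKM.

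Over the 12 libraries the genes moved closely together. The Pearson correlation of each gene with the mean of the other 40, on the log2 scale, was 1.00 for Prc1, 0.99 for Tpx2 and 0.99 for Ccna2, and lowest for Anln (0.68), Ncapg (0.69), Ect2 (0.71) and Cenpf (0.82). The 12 points share their groups, so that these values describe the pattern of the groups as much as that of single libraries. The genes without TTTGAA in their promoter (8 tested) had a median log2 fold change of -0.41 in Liposome against uninvolved knees, with a range from -0.77 to -0.19. For the 26 genes with it the median was -0.57, with a range from -1.35 to 0.37. A difference between these sets was not tested.

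Outside the gene lists compared here, the genes whose values over the 12 libraries were most like the mean of the 41 were Lhx2 (r = 0.99), Cep72 (0.99), Traip (0.99), Neil3 (0.99), Ezh2 (0.99), Exnef (0.99), LOC100359539 (0.98) and AABR07000658.1 (0.98). Ezh2, the methyltransferase of Polycomb repressive complex 2, had group means of 22.7 FPKM in uninvolved knees, 20.8 in Saline, 15.3 in Liposome and 10.1 in Lipo-CGS. Lhx2, a LIM homeobox transcription factor, was expressed at low levels, with means of 3.39, 3.05, 2.42 and 1.59 FPKM in the same order.

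Of 91 tested other genes of the wider mitosis programme, 37 were called lower, 2 higher (Cit, Mis12) and 52 not called in Liposome against uninvolved knees, where 16.3% of all tested genes were called lower. In Lipo-CGS 77 of the 91 were called lower and 0 higher, beside 14.0% of all tested genes called lower. The median log2 fold changes were -0.48 in Liposome and -1.10 in Lipo-CGS. Their smallest adjusted p-values in Liposome were those of Bub3, Ube2s and Ska2. Bub3, the checkpoint partner of Bub1, had a mean of 58.2 ± 5.95 FPKM in uninvolved knees (SD, n = 3), 31.9 ± 3.59 in Liposome and 30.7 ± 2.15 in Lipo-CGS, a log2 fold change of -0.86 ± 0.10 in Liposome (limma adjusted p = 0.000147). Ube2s, which extends ubiquitin chains on the APC/C, had 206 ± 44.6 FPKM in uninvolved knees, 84.7 ± 13.04 in Liposome and 84.2 ± 1.99 in Lipo-CGS (-1.27 ± 0.16, adjusted p = 0.000147). Ska2, a kinetochore protein, had 16.4 ± 1.26, 7.52 ± 1.64 and 7.09 ± 0.528 FPKM (-1.09 ± 0.13, adjusted p = 0.000149). For each of these 3 genes the means of Liposome and Lipo-CGS differed by less than the SD of the Liposome libraries. Between Lipo-CGS and Liposome 0 of 91 were called, and the smallest adjusted p-values by limma were those of Aspm, a spindle pole protein (-0.82 ± 0.17, adjusted p = 0.0702), Depdc1 (-1.02 ± 0.22, adjusted p = 0.0704) and Kntc1, a kinetochore checkpoint protein (-0.77 ± 0.17, adjusted p = 0.0713).

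Most DNA replication genes, which act before mitosis, were lower in both liposome groups. In Liposome 30 of 38 were called lower than in uninvolved knees (16.3% of all tested genes) and in Lipo-CGS 38 of 38 (14.0% of all tested genes), with medians of -0.86 and -1.34 and 0 called higher. Pcna, the sliding clamp of DNA polymerases, had 329 ± 42.4 FPKM in uninvolved knees, 278 ± 10.02 in Saline, 119 ± 29.8 in Liposome and 92.3 ± 15.2 in Lipo-CGS (mean ± SD, n = 3), with a log2 fold change of -1.48 ± 0.17 in Liposome (limma adjusted p = 0.000135). Dut, which removes dUTP, and Rfc3, a subunit of the clamp loader, had log2 fold changes of -1.46 ± 0.17 and -1.35 ± 0.17 (adjusted p = 0.000135 and 0.000151). The difference between Lipo-CGS and Liposome had a median of -0.49 over these 38 genes, with 0 called, beside -0.68 over the 41 mitosis and spindle genes. Its smallest adjusted p-values were those of the licensing factor Cdc6 (-0.86 ± 0.22, adjusted p = 0.099), the chromatin assembly subunit Chaf1b (-0.78 ± 0.20, adjusted p = 0.1) and the origin recognition subunit Orc6 (-0.55 ± 0.15, adjusted p = 0.102).

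DREAM complexes act at promoters of the cell cycle, and the APC/C is the target of the checkpoint. The list compared here holds subunits of both. It also holds Rb1, E2f1, E2f2, E2f3, E2f7 and E2f8, which are not DREAM subunits, and the APC/C activator Fzr1. Among its 27 tested genes 3 were called lower and 2 higher in Liposome than in uninvolved knees, beside 16.3% and 14.1% of all tested genes. In Lipo-CGS 3 were called lower and 0 higher, beside 14.0% and 11.7%. The medians of these genes were -0.06 and -0.21, and nothing particular to this mixed list is read from counts of this size. Anapc11, the RING subunit of the APC/C, had -1.13 ± 0.15 in Liposome (limma adjusted p = 0.000227), Cdc27, another of its subunits, 0.95 ± 0.18 (adjusted p = 0.00103), and Rbbp4, a histone chaperone of the MuvB core, -0.57 ± 0.12 (adjusted p = 0.00174), which was under the fold threshold. Between Lipo-CGS and Liposome 0 of 27 were called, and the genes with the smallest adjusted p-values, E2f3, Rbl1 and E2f8, had -0.39 ± 0.12, -0.54 ± 0.19 and -0.62 ± 0.22 (limma adjusted p = 0.13, 0.168 and 0.169). Of 10 cohesin genes, whose products hold sister chromatids together, 3 were called higher (Nipbl, Pds5a, Wapl) and 0 lower in Liposome, and 0 higher and 1 lower (Rad21) in Lipo-CGS, with medians of 0.20 and 0.11. At the shares over all tested genes, such counts are too small to set this list apart.

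Of the 18 tested cyclins of earlier phases, their kinases and inhibitors of division, 5 were called lower and 3 higher in Liposome against uninvolved knees, beside 16.3% and 14.1% of all tested genes. In Lipo-CGS 7 were called lower and 2 higher (Cdkn1c, Gas1), beside 14.0% and 11.7%, so that the higher counts were near the background in both groups. Cdkn2b, the CDK4 and CDK6 inhibitor p15, had 1.34 ± 0.156 FPKM in uninvolved knees, 1.43 ± 0.440 in Saline, 3.86 ± 0.913 in Liposome and 1.76 ± 0.187 in Lipo-CGS (mean ± SD, n = 3). It was higher in Liposome than in uninvolved knees by 1.23 ± 0.18 on the log2 scale (limma adjusted p = 0.000319), and the difference between Lipo-CGS and Liposome was -0.93 ± 0.18 (adjusted p = 0.0614, not called). Btg2, an antiproliferative gene, had 90.7 ± 7.72, 88.8 ± 7.02, 27.8 ± 3.01 and 43.2 ± 6.43 FPKM in the same order, with a log2 fold change of -1.69 ± 0.12 in Liposome (adjusted p = 1.26e-05) and a difference of 0.62 ± 0.12 between Lipo-CGS and Liposome (adjusted p = 0.0643, not called). Cdkn2c, the inhibitor p18, was also lower in Liposome (-1.10 ± 0.17, adjusted p = 0.00036). Gas1, a growth arrest gene of the cell surface, had 58.3 ± 4.53, 62.6 ± 2.78, 75.5 ± 24.7 and 179.5 ± 46.3 FPKM, with a log2 difference of 1.28 ± 0.23 between Lipo-CGS and Liposome (adjusted p = 0.0607, not called) and 1.59 ± 0.23 between Lipo-CGS and uninvolved knees (adjusted p = 0.00044). Cdkn1c, the inhibitor p57, had 9.62 ± 1.74, 7.68 ± 2.79, 14.7 ± 9.78 and 42.3 ± 9.89 FPKM and the largest positive differences of this list in Lipo-CGS, with 2.07 ± 0.44 against uninvolved knees (limma adjusted p = 0.00291) and 1.73 ± 0.44 against Liposome (adjusted p = 0.0966, not called).

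**Figure D5:**
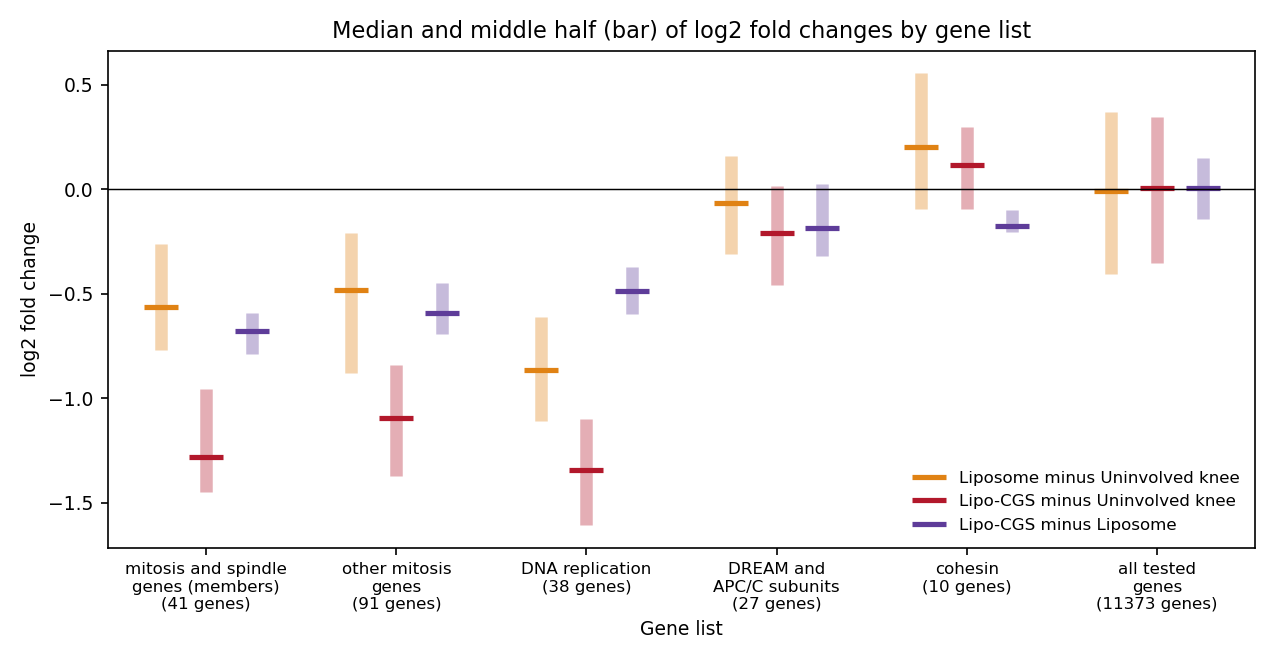
Median (line) and interquartile range (bar) of the log2 fold changes (vertical axis) of the genes of each list (horizontal axis), for Liposome minus Uninvolved knee, Lipo-CGS minus Uninvolved knee and Lipo-CGS minus Liposome. The list labelled DREAM and APC/C subunits also holds Rb1, other E2F genes and Fzr1. The 41 mitosis and spindle genes have medians of -0.56, -1.28 and -0.68, and the 11373 tested genes -0.01, 0.01 and 0.00.

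Markers of cell identity also differed between the groups. Summed over 10 chondrocyte genes (10 in the table), the level was 9313–10446 FPKM in uninvolved knees, 5920.3–10802 in Saline, 9623–15445 in Liposome and 12040–17652 in Lipo-CGS. Single genes went both ways, with 5 positive and 5 negative log2 differences in Liposome against uninvolved knees and a median of 0.07. In Lipo-CGS 7 were positive and 3 negative, with a median of 0.57. Prg4 went against the sum, at 371–704 FPKM in uninvolved knees and 138–284 in Liposome. Within Liposome the first library was the lowest in the chondrocyte sum, while it was the highest in the mitosis and spindle genes. Within Lipo-CGS the second library was the lowest in this sum, and Saline 3 was the lowest of its group. The sums of both lists thus moved in opposite directions in the libraries that stood apart. The chondrocyte sum was led by Col2a1, with 9092 FPKM in Lipo-CGS 2. Each listed chondrocyte gene was lowest of its group in Liposome 1 and in Saline 3. In Lipo-CGS 2 this did not hold for Hapln1, Matn3, Col9a1, Col11a1 and Cnmd. Summed over 8 fibroblast and synovial genes (8 in the table), the level was 367–460.4 FPKM in uninvolved knees, 413–1449 in Saline, 1983–2485 in Liposome and 844–855 in Lipo-CGS, and Cd34, a defining marker of the list, was at most 0.15 FPKM. This sum was highest in Liposome, and Saline 3 was the highest of its group. Most of it came from Col1a1 and Col3a1, at 677–1315 and 897–1025 FPKM in Liposome and 83.0–87.9 and 484–538 FPKM in Lipo-CGS. Thy1 and Dpt followed the sum, with Thy1 at 53.0–64.9 FPKM in uninvolved knees, 157.6–175.7 in Liposome and 111.5–157.4 in Lipo-CGS. Dpt was at 1.74–8.82, 19.3–26.3 and 6.79–16.85 FPKM in the same order. Between Liposome and Lipo-CGS, Fap, Pdgfra and Pi16 did not follow it. Fap was at 30.6–69.9 FPKM in Liposome and 49.8–67.8 in Lipo-CGS, Pdgfra at 40.3–46.8 and 42.1–46.1, and Pi16 at 1.01–1.42 and 0.99–1.52. Osteoblast genes summed to 98.3–132 FPKM in uninvolved knees, 52.3–113 in Saline, 44.9–102 in Liposome and 23.5–33.9 in Lipo-CGS, led by Ibsp, while the defining markers Sp7 and Bglap were at most 0.25 and 0.89 FPKM. The part of the make-up of the cultures in the differences of the mitosis and spindle genes was not tested.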

How the data were processed

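RNA of pooled chondrocyte cultures was sequenced in 12 libraries, 4 groups of 3, assigned by column name to the titles in the labels. The authors deposited FPKM values with 2 decimals. By the methods, 50-base single reads from a HiSeq 4000 were mapped by STAR 2.4.5a on Rnor_6.0 and counted with featureCounts (Subread 1.4.6-p3), while the submitters' processing notes name HTSeq. The step from counts to FPKM, the handling of multiply mapped reads and strand are not given in the sources used here, and the number of reads per library is unknown. All columns were used, with 0 left unassigned. FPKM takes no account of changes in total RNA per cell.

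The deposited FPKM values were taken as log2(FPKM + 0.5) and not rescaled. A gene was tested if 3 or more libraries reached 1 FPKM (11373 of 28546). The 4 group means were estimated from all libraries in limma 3.58.1 under R 4.3.3 (eBayes with trend, 8 residual and 3.65 prior degrees of freedom), two-sided, with Benjamini-Hochberg adjustment over all tested genes. A gene was called at a fold change over 1.5 with an adjusted p below 0.05. Folds are on the log2(FPKM + 0.5) scale, which understates the change of low genes. The procedure was tested on simulated data. Alternatives were other pseudocounts (0.1 and 1), filters (none, or 5 FPKM), median-of-ratios scaling, fits to the compared groups alone, a replicate block, robust eBayes, dropping the fold threshold, and leaving out each library in turn. The median-of-ratios factors of the libraries ran from 0.9996 to 1.0005. The deposited values were thus already on that scale, and this alternative could hardly change a result. Count methods were not run.

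The members and lists were chosen with earlier results of these data known. Values in all libraries are given for the most abundant gene of each role, the 5 largest absolute differences in Liposome against uninvolved knees, Liposome against Saline and Lipo-CGS against Liposome, the genes least and most correlated with the others, and Mki67, Cdk1, Ccnb1, Plk1, Aurkb and Foxm1. From the lists of other mitosis, DNA replication, cyclin and CDK inhibitor, and DREAM and APC/C genes the 3 smallest adjusted p-values in Liposome against uninvolved knees and in Lipo-CGS against Liposome are named, and outside the lists the 8 most correlated genes. Other genes named are members of a count given beside them, and Cdkn1c, Cdkn1a, Cdkn1b, Cdkn2a and Ccnd1 were chosen after their values were seen. Promoters were matched by symbol to RefSeq on GRCr8, another assembly than that of the reads, and 1 gene had several windows, of which the first was used. Plots were made in Python 3.11.15 (matplotlib 3.10.9).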

Additional observations from a re-analysis of the deposited data

How the results depend on the processing

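Counts of called genes stayed within 1.5 times of the reported count in every alternative except those named here. For Liposome against uninvolved knees, leaving out 1 library gave counts of genes called lower between 9 (without Liposome 3) and 28 (without Liposome 1), beside 18 with all libraries. For Liposome against Saline the count was 16, it was 9 in a fit to only the groups compared, and leaving out 1 library gave 5 (without Liposome 3) to 27 (without Liposome 1). For Lipo-CGS against Liposome, leaving out 1 library gave 0 to 1. The signs of small differences also turned when 1 library was left out. Against uninvolved knees, the log2 differences of Liposome ranged from -0.17 to 0.21 for Cenpf, -0.27 to 0.21 for Bub1b, -0.21 to 0.10 for Smc2, -0.50 to 0.010 for Kif20a, -0.57 to 0.0002 for Ttk and -0.38 to 0.091 for Racgap1. Against Saline they ranged from -0.12 to 0.26 for Cenpf, -0.077 to 0.39 for Anln, -0.32 to 0.16 for Bub1b, -0.47 to 0.041 for Kif20a, -0.49 to 0.090 for Ttk, -0.44 to 0.036 for Racgap1 and -0.24 to 0.062 for Smc2. Over all genes and alternatives, calls were lost in 17 and gained in 13 fits of a gene for Liposome against uninvolved knees, lost in 47 and gained in 11 for Liposome against Saline, lost in 22 and 34 for Lipo-CGS against uninvolved knees and Saline, and gained in 2 for Lipo-CGS against Liposome. The cause was not tested.

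The libraries of a group share only replicate numbers with those of other groups. Of 18 pairs with the same number 2 had deviations correlated above 0.1 (range -0.22 to 0.20), and 2 of 12 libraries correlated best with their own number. With the replicate number as a block, 18 genes were called lower in Liposome and 38 in Lipo-CGS against uninvolved knees, 15 and 38 against Saline, and 0 in Lipo-CGS against Liposome and in Saline against uninvolved knees. The number of reads per library is unknown, and each group had 3 libraries, which limits the differences that can be called.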
